A study of Mus musculus with 18 samples.

Results

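The chemokine ligand genes were all genes of the table whose symbol is Ccl, Cxcl, Cx3cl or Xcl followed by a digit, with names ending in -ps left out. They numbered 38 of the 55414 gene rows. The rule used names and no measured value, and the family was proposed with earlier results of these data known. Of the 38, 24 reached a mean of at least 1 CPM (counts per M, from the estimated counts and scaled between libraries) in at least 1 of the 6 groups. Another 6 (Ccl17, Ccl27b, Cxcl9, Cxcl11, Cxcl13 and Cxcl15) had counts but stayed below that level. The other 8 (Ccl1, Ccl11, Ccl19, Ccl21a, Ccl21b, Ccl22, Ccl26 and Xcl1) had no count in any of the 18 libraries.

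Chemokines are small secreted proteins that bind G protein-coupled receptors on leukocytes and direct their movement along a gradient. They are sorted into the CC, CXC, CX3C and XC classes by the spacing of their first cysteines. In the gut, epithelial cells make CCL25, CCL28 and CCL20, which draw lymphocytes, antibody-secreting cells and dendritic cells to the mucosa. Epithelial cells under inflammatory signalling also make CXC ligands that attract neutrophils (through CXCR2) or activated T cells (through CXCR3). Macrophages and fibroblasts make many of the CC ligands that recruit monocytes. CX3CL1 and CXCL16 differ from the rest in that they are made as membrane-anchored proteins with a chemokine domain on a mucin-like stalk, from which ADAM proteases release them.

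The libraries came from cultures of small intestinal epithelium of wild-type C57BL/6J mice, whose age and sex the labels do not give, in 6 groups of 3, harvested on day 6. Crypts in Matrigel, a basement membrane extract, grew in ENR medium (EGF, Noggin and R-spondin 1), untreated (MG_Control) or with 40 µM 5-fluorouracil (5-FU), a pyrimidine analog that blocks thymidylate synthesis, from day 4 (MG_5FU). Crypts in collagen type I grew in ENRW medium without (COL_Control) or with the same 5-FU treatment (COL_5FU), or in 25% cWRNE medium without 5-FU (COL_cWRNE). Villi from within 3 cm of the pylorus grew in collagen type I with 25% cWRNE medium and no 5-FU (VIL). Matrix and medium therefore changed together between the Matrigel groups, treated or not, and the collagen groups and cannot be told apart. This holds for their responses to 5-FU as well, so a difference between the matrices below includes the medium. Villus origin and gut region likewise cannot be told apart between VIL and COL_cWRNE. The series text calls the 3 samples of a group biological replicates.

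Library totals ran from 22.3 M to 34.5 M estimated counts. The summed level of 10 epithelial markers was 12005 to 30074 CPM in every library. The 14 immune markers summed to at most 71.4 CPM in the 15 crypt-derived libraries and to 181 to 923 CPM in VIL. The 12 mesenchymal markers summed to at most 14.6 CPM in the crypt-derived libraries and to 54 to 761 CPM in VIL. In bulk RNA, fewer cells of a type and less RNA per cell cannot be told apart. COL_Control replicate 3 held 738 counts on Y-linked genes beside 4893 counts of Xist, while the other 17 libraries had either no more than 1 Y-linked count or no more than 15 Xist counts. Results that lose their call without that library are named below. Among all genes called, the share that was higher moved by more than 10 percentage points when library totals replaced TMM scaling in 4 comparisons. It went from 62.2% to 44.6% for 5-FU in Matrigel, from 52.8% to 41.7% for 5-FU in collagen, from 23% to 33% for their difference, and from 73% to 45.2% for cWRNE against ENRW.

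The 250 bases before the start site were searched in the RefSeq promoter table (GRCm38.p6, an older build than that of the deposited table), which held 27 of the 38 genes. The 10-letter NF-kB consensus was found on either strand in 6 of them, and the core of the interferon-stimulated response element (ISRE), GAAA, any 2 bases and GAAA again, in 3. Over the whole table, 4.46% of 27025 genes had the NF-kB consensus and 3.46% had the ISRE core. These letters are shown because the results below return to all 6 genes, Cxcl1, Cxcl2, Cxcl3, Cxcl10, Ccl20 and Ccl9. Of the other neutrophil attractants, Cxcl15 had no NF-kB match and Cxcl5 was not in the promoter table. Cxcl1, Cxcl2 and Cxcl3 carried the same 11 letters (2 overlapping matches) beginning at -71, -97 and -73 from the start site. Cxcl10 had the ISRE core at -213 and NF-kB matches at -159 and -103, and Ccl20 and Ccl9 had 1 match each, at -80 and -35. The ISRE core was also in Cxcl14 and Ccl19. A match is a description of the letters and not a site of binding. Capitals mark the matches in the 150 bases before the start site (250 for Cxcl10), written 5′ to 3′ on the gene's strand.
Cxcl1, chr5:90891095-90891244, plus strand: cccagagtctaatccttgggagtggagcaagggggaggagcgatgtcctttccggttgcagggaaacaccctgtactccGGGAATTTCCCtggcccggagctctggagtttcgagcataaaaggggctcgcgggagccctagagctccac
Cxcl2, chr5:90903749-90903898, plus strand: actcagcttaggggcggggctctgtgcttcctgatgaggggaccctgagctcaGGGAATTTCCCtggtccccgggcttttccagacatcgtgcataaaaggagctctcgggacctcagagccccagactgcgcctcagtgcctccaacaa
Cxcl3, chr5:90785951-90786100, plus strand: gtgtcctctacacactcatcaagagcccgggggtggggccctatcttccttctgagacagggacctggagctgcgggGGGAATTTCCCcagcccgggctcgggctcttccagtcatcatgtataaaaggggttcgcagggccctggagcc
Cxcl10, chr5:92348890-92349139, minus strand: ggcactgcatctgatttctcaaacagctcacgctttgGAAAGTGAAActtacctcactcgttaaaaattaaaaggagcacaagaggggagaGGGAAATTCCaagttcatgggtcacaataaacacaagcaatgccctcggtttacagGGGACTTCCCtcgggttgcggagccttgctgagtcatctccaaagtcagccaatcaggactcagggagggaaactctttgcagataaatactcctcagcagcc
Ccl20, chr1:83116616-83116765, plus strand: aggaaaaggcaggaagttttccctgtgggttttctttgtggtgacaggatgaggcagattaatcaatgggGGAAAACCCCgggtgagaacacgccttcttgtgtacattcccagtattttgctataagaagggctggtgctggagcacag
Ccl9, chr11:83578637-83578786, minus strand: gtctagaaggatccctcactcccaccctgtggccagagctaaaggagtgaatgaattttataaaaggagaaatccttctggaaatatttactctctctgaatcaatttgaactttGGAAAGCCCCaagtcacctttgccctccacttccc

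On the deposited TPM scale, which corrects for transcript length and so allows genes to be compared, 1 gene supplied most of the chemokine RNA in 5 of the 6 groups, and which gene it was differed by culture. Ccl25 stood first in MG_Control with a mean of 429 TPM, 65.9% of the summed chemokine TPM, and in MG_5FU with 558 TPM (73.8%). Cxcl16 stood first in COL_Control with 102 TPM (36.2%), in COL_5FU with 166 TPM (55%) and in COL_cWRNE with 219 TPM (58.4%). Ccl6 stood first in VIL with 1004 TPM (57.2%). The summed TPM of the 38 genes was 585 to 704 per library in MG_Control, 725 to 784 in MG_5FU, 259 to 319 in COL_Control, 251 to 362 in COL_5FU, 327 to 410 in COL_cWRNE and 1335 to 2174 in VIL. The sum thus separated the Matrigel, collagen crypt and villus cultures without overlap. Per library, 14 of the 38 genes were detected in MG_Control and 26 or 27 in VIL.

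**Figure D1:**
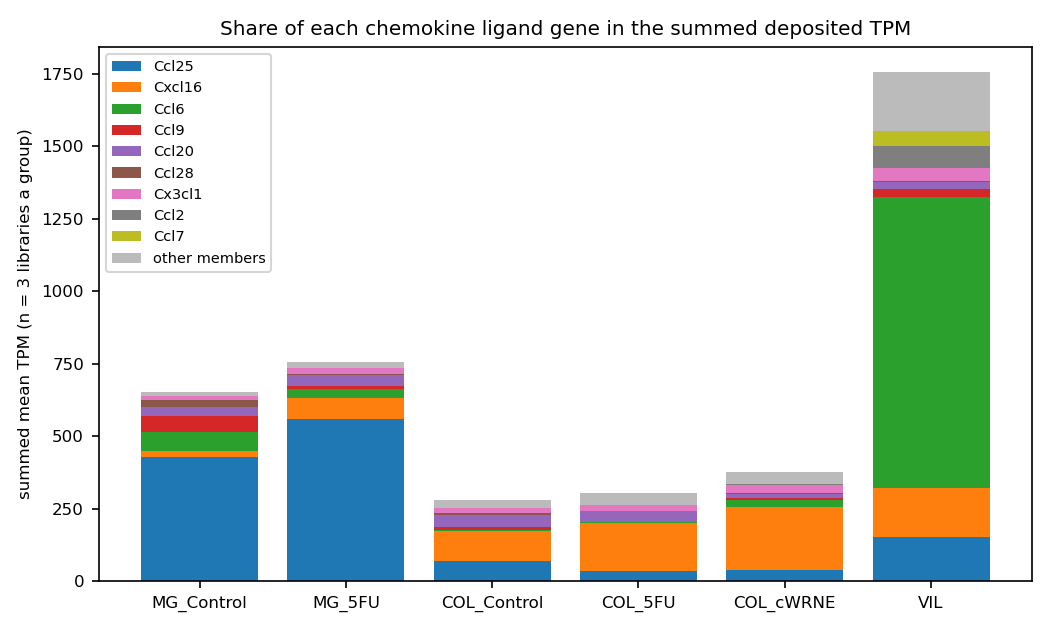
Stacked bars of the mean deposited TPM (n = 3 libraries a group) of each chemokine ligand gene in the 6 groups; the y axis is TPM and each colour is 1 gene, with the other members in grey. Ccl25 filled most of both Matrigel bars, Cxcl16 was the largest segment of the 3 collagen crypt bars, and Ccl6, at 1004 TPM, filled most of the villus bar.

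The first comparison asked how 5-FU changed the cultures in each matrix. In Matrigel, 5-FU raised the membrane-anchored Cxcl16 and Cx3cl1, the neutrophil attractant Cxcl1 and the CXCR3 ligand Cxcl10, and it lowered Ccl28, Ccl9 and Ccl6. In collagen it lowered Ccl28, Ccl9, Ccl6 and also Ccl25, and it raised Cxcl16 and Cxcl5. By edgeR's quasi-likelihood test, 10 of the 15 chemokine genes that passed the low-count filter were called in Matrigel (7 higher and 3 lower). The background was 30.9% of all genes tested (19.2% higher and 11.7% lower). In collagen 6 of 15 were called (2 higher and 4 lower) against a background of 35.3% (18.6% higher, 16.7% lower), a share close to that background. The median log2 fold change of the 15 was 0.69 in Matrigel and 0.23 in collagen, beside 0.06 and -0.03 over all genes tested. Cxcl11 passed the filter only through MG_5FU and Ccl2 only through COL_5FU, where each is high. Nothing is therefore read from the Cxcl11 call. Without Cxcl11, 9 of 14 genes were called in Matrigel (6 higher and 3 lower).

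Among the mucosal epithelial ligands, Ccl25, the ligand of CCR9 on gut-homing T cells, had changes of opposite sign in Matrigel and collagen. It stood at 276, 314 and 276 CPM in MG_Control and at 516, 401 and 427 CPM in MG_5FU. It stood at 26.4, 40.8 and 58.2 CPM in COL_Control and at 16.6, 19.9 and 28.3 CPM in COL_5FU. Both Matrigel groups lay far above both collagen groups, the treated Matrigel libraries lay above their controls, and the collagen groups overlapped. The log2 fold change was 0.69 ± 0.24 (SE) in Matrigel (edgeR adjusted p = 0.0418) and -0.98 ± 0.25 in collagen (edgeR adjusted p = 0.00725). The Matrigel call ended without any 1 of the 6 libraries (edgeR adjusted p 0.0524 to 0.119). It also ended with RLE size factors (edgeR adjusted p = 0.0514) and with library totals (edgeR adjusted p = 0.103). Limma-trend on log2 of TPM plus 1 did not call it either (adjusted p = 0.26). In the fit of 18 libraries neither the Matrigel nor the collagen change was called (edgeR adjusted p = 0.415 and 0.196). The difference between the matrices, -1.67 ± 0.34, was called (edgeR adjusted p = 0.00886). Beside this, the summed level of 6 enterocyte markers was 2190 to 2491 CPM in MG_Control, 6972 to 8253 CPM in MG_5FU, 125 to 579 CPM in COL_Control and 103 to 159 CPM in COL_5FU. The part of enterocyte content in the Ccl25 values was not tested. Exons of Ccl25 share 204 bases with those of Elavl1 on the other strand, and strand-aware counting is not stated in the sources used here.

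Ccl28, which draws IgA-secreting cells through CCR10, fell in both matrices. Its levels were 46.7, 61.9 and 74.5 CPM in MG_Control against 7.06, 12.4 and 12.1 CPM in MG_5FU, and 10.4, 23.2 and 24.2 CPM in COL_Control against 0.813, 2.56 and 5.01 CPM in COL_5FU. Neither pair of groups overlapped. The log2 fold changes were -2.49 ± 0.46 (edgeR adjusted p = 0.00102) and -2.79 ± 0.49 (edgeR adjusted p = 0.000655), the latter -3.54 without COL_5FU replicate 3. Ccl20, the CCR6 ligand that attracts dendritic cells and lymphocytes to lymphoid follicles, did not pass in either matrix. Its log2 fold changes were 0.45 ± 0.33 in Matrigel and 0.08 ± 0.33 in collagen, and the levels of treated and control libraries overlapped in both.

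Both membrane-anchored ligands rose in Matrigel. Cxcl16, the ligand of CXCR6 on T and NKT cells, went from 32.2, 27.9 and 24.0 CPM in MG_Control to 142, 127 and 138 CPM in MG_5FU. In collagen it went from 190, 109 and 107 CPM in COL_Control to 345, 264 and 182 CPM in COL_5FU. Treated Matrigel libraries thus reached the level that untreated collagen libraries already had, and the 2 collagen groups overlapped. The log2 fold changes were 2.33 ± 0.24 (edgeR adjusted p = 8.21e-06) and 0.93 ± 0.23 (edgeR adjusted p = 0.00635), and their difference of -1.41 ± 0.32 was called (edgeR adjusted p = 0.0169). Exons of Cxcl16 share 552 bases with those of Zmynd15 on the other strand. Cx3cl1 (fractalkine), the ligand of CX3CR1 on intestinal macrophages, stood at 32.3, 27.9 and 39.4 CPM in MG_Control and at 62.9, 59.9 and 61.3 CPM in MG_5FU, with no overlap. In collagen its 3 control libraries, at 34.5, 35.9 and 36.6 CPM, lay below the 3 treated ones, at 40.8, 47.5 and 39.7 CPM. The log2 fold change was 0.94 ± 0.13 in Matrigel (edgeR adjusted p = 8.28e-05) and 0.23 ± 0.13 in collagen, where it did not pass (edgeR adjusted p = 0.188). The difference of -0.71 ± 0.18 (edgeR adjusted p = 0.026) lost its call without any 1 of 9 of the 12 libraries, COL_Control replicate 3 among them (edgeR adjusted p 0.0519 to 0.0663). Of 4 proteases that act on chemokines, 1 was called higher and 1 lower in Matrigel, and 2 lower in collagen. Adam10, which releases both ligands, fell by 0.56 on the log2 scale in Matrigel (edgeR adjusted p = 0.014) and fell by 0.45 in collagen (edgeR adjusted p = 0.039).

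**Figure D2:**
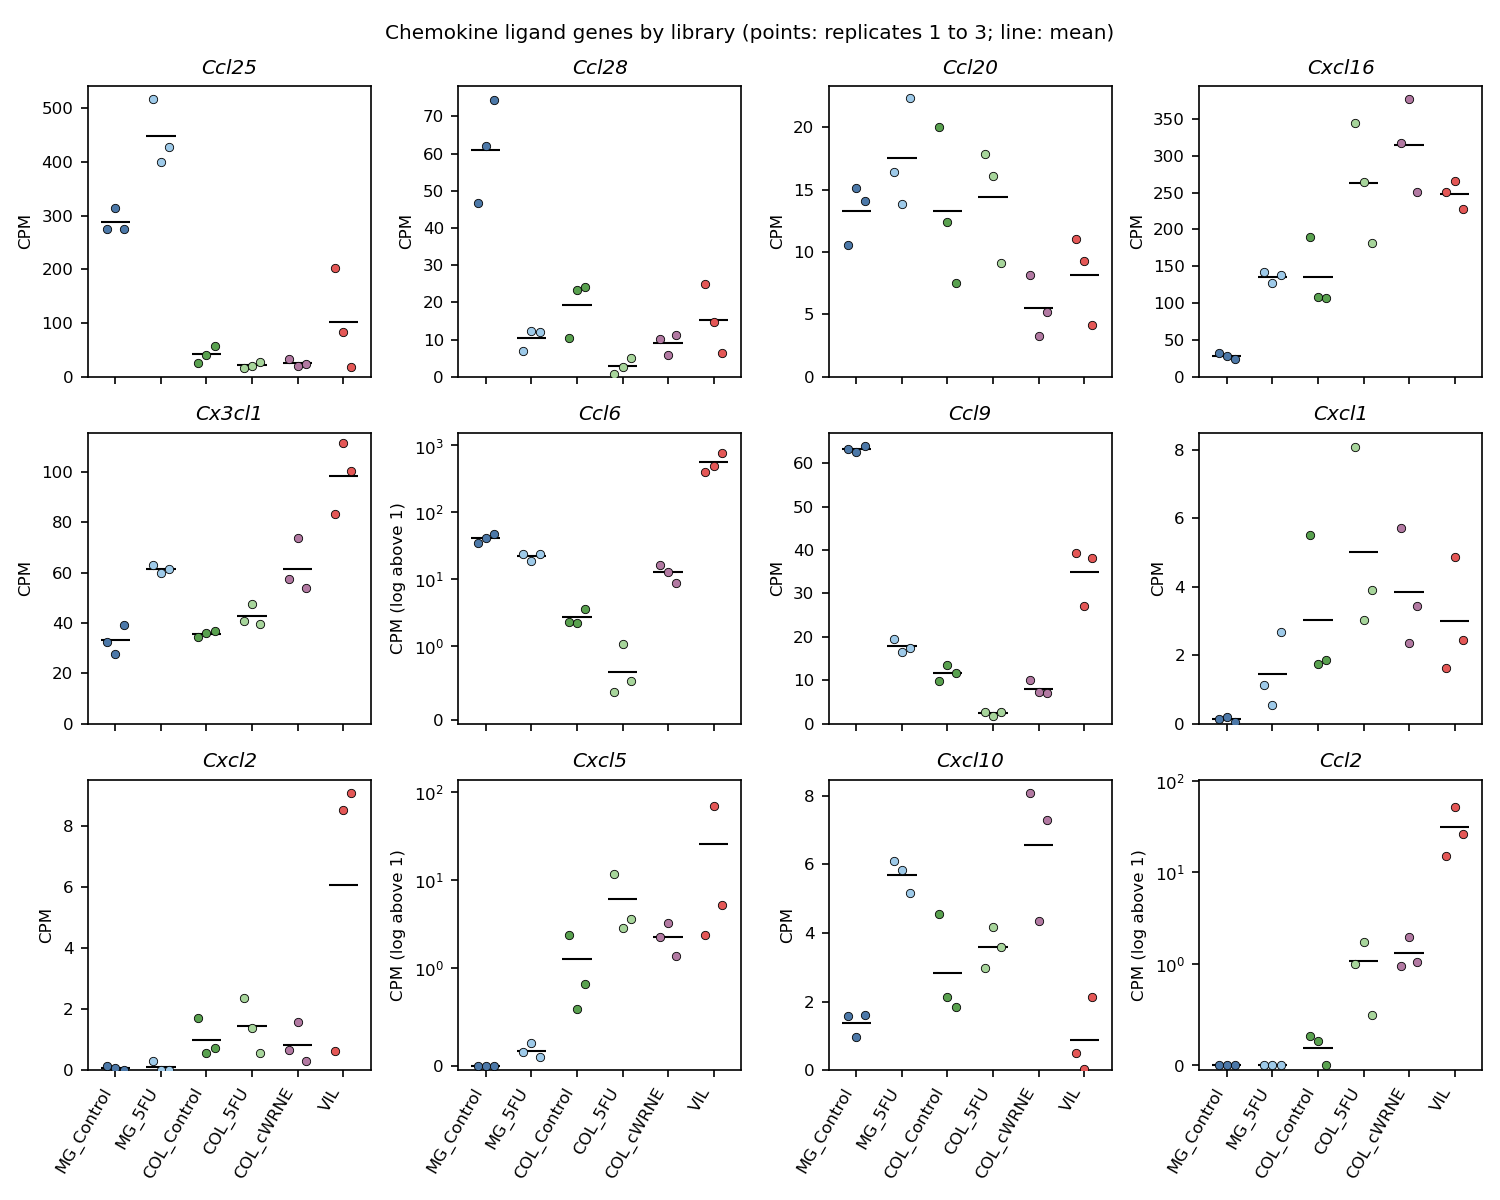
Levels of 12 chemokine ligand genes in the 18 libraries, in CPM, with 1 point a library, replicates 1 to 3 from left to right, and a line at the group mean (n = 3); the y axis is logarithmic above 1 CPM for Ccl6, Cxcl5 and Ccl2 and linear for the others. Ccl25 was high in both Matrigel groups, Cxcl16 rose from 28.0 CPM on average in MG_Control to 136 CPM in both MG_5FU and COL_Control, and Ccl6 and Ccl2 were highest in the villus libraries.

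The neutrophil attractants that act through CXCR2 were scarce in Matrigel. Cxcl1 stood at 0.146, 0.179 and 0.0608 CPM in MG_Control and at 1.14, 0.529 and 2.68 CPM in MG_5FU, with no overlap. It rose by 3.52 ± 0.77 on the log2 scale (edgeR adjusted p = 0.00336), or by 2.75 without MG_5FU replicate 3. In collagen Cxcl1 was 5.51, 1.73 and 1.85 CPM in controls and 8.09, 3.02 and 3.91 CPM with 5-FU, an overlapping 0.69 ± 0.59 that did not pass (edgeR adjusted p = 0.396). The difference between the matrices was not called (edgeR adjusted p = 0.0954). Cxcl5, absent from the counts of MG_Control, had 12 counts in MG_5FU, at least 4.58-fold more (edgeR adjusted p = 0.0316). That call ended in 5 of the 6 fits that left out a library, all but the one without MG_5FU replicate 3. In collagen Cxcl5 went from 2.36, 0.576 and 0.834 CPM to 11.6, 2.84 and 3.59 CPM, a log2 fold change of 2.22 ± 0.65 (edgeR adjusted p = 0.0204). That call ended without COL_Control replicate 2 or 3 (edgeR adjusted p 0.0744 to 0.0745) or COL_5FU replicate 1 (log2 fold change 1.34, edgeR adjusted p = 0.155), and the change was 3.05 without COL_Control replicate 1. Cxcl2 did not pass in either matrix, and Cxcl3 did not pass the low-count filter. Cxcl3 had 3 counts in COL_Control and 49 in COL_5FU, a ratio of 16.1 with a 95% counting interval of 5.20 to 80.8.

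Of the CXCR3 ligands, which attract activated T cells, Cxcl10 rose with 5-FU in Matrigel, where Cxcl11 had counts only with 5-FU. Cxcl10 went from 1.57, 0.965 and 1.61 CPM in MG_Control to 6.09, 5.82 and 5.17 CPM in MG_5FU, without overlap, a log2 fold change of 2.09 ± 0.36 (edgeR adjusted p = 0.000634). In collagen it was 4.56, 2.13 and 1.85 CPM against 2.99, 4.19 and 3.59 CPM, overlapping groups with a change of 0.30 ± 0.35 (edgeR adjusted p = 0.534). The difference of -1.79 ± 0.50 was called at the margin (edgeR adjusted p = 0.0429) and ended without any 1 of 9 of the 12 libraries (edgeR adjusted p 0.0615 to 0.104). Cxcl11 had no count in MG_Control and 54 in MG_5FU, at least 20.6-fold more. It passed the filter only through MG_5FU, so nothing is read from its call (edgeR adjusted p = 0.0128). It shares 1582 exonic bases with the pseudogene Gm2673, and Cxcl10 shares 133 with Art3, each on the other strand. Cxcl9 had no count in MG_Control and 8 in MG_5FU, all of them in replicate 1, and was not tested. Of 18 tested genes of interferon signalling, 5 were called higher and 1 lower in Matrigel, and 1 higher and 5 lower in collagen. That is 33.3% of the list in each matrix, close to the backgrounds of 30.9% and 35.3%. The difference was called for 3 of them, all lower in collagen, among them Irf7, a transcription factor of the interferon response (-1.78, edgeR adjusted p = 0.0024). Of 22 tested genes of NF-kB and inflammatory signalling, 8 were called in each matrix, all of them higher. Their share of 36.4% stood beside 19.2% of all genes tested called higher in Matrigel and 18.6% in collagen. Icam1, a leukocyte adhesion molecule, had the smallest adjusted p, with log2 fold changes of 4.34 (edgeR adjusted p = 1.9e-07) and 3.19 (edgeR adjusted p = 1.4e-06).

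Ccl6 and Ccl9, rodent CC ligands that act on CCR1, fell in both matrices. Ccl9 went from 63.3, 62.7 and 63.9 CPM to 19.4, 16.6 and 17.4 CPM in Matrigel, and from 9.72, 13.4 and 11.7 CPM to 2.62, 1.78 and 2.70 CPM in collagen. No groups overlapped within a matrix, and the log2 fold changes were -1.78 ± 0.16 (edgeR adjusted p = 2.96e-06) and -2.32 ± 0.18 (edgeR adjusted p = 1.1e-06). Ccl6 went from 35.0, 41.5 and 47.5 CPM to 23.6, 18.7 and 23.4 CPM in Matrigel, and from 2.29, 2.2 and 3.52 CPM to 0.370, 1.07 and 0.522 CPM in collagen. The changes were -0.87 ± 0.25 (edgeR adjusted p = 0.0165) and -2.06 ± 0.32 (edgeR adjusted p = 0.000287). The Matrigel call ended without MG_Control replicate 3 or MG_5FU replicate 2 (edgeR adjusted p 0.0677 to 0.0718). Of the other CC ligands, Ccl2, which recruits monocytes through CCR2, had no count in either Matrigel group. Its change in collagen, 2.54 ± 1.02, did not pass (edgeR adjusted p = 0.0836). The skin ligand Ccl27a, a near-identical copy of Ccl27b whose reads counting could split, lay between 1.76 and 3.77 CPM in these 12 libraries and was not called.

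**Figure D3:**
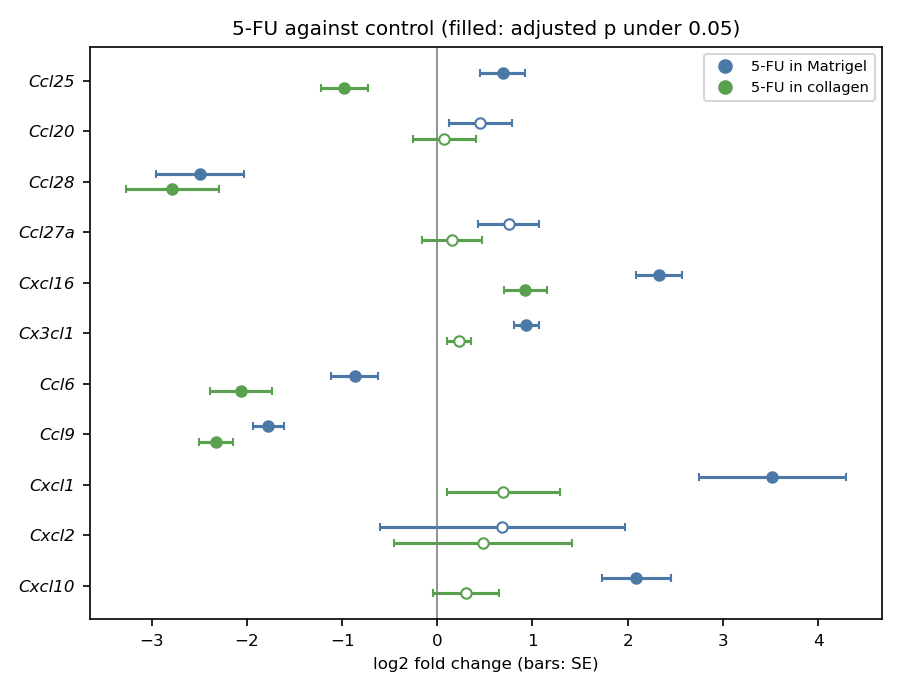
Log2 fold change with 5-FU (x axis; bars are SE) of 11 chemokine ligand genes in Matrigel (blue) and collagen (green), with filled points at an edgeR adjusted p under 0.05. Ccl28 and Ccl9 lay left of zero in both matrices, Ccl25 lay at 0.69 in Matrigel and -0.98 in collagen, and Cxcl16 lay right of zero in both, at 2.33 and 0.93.

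In the difference between the 2 responses, 4 of the 15 genes were called, all with a lower value in collagen, against a background of 8.19% (1.88% higher, 6.3% lower). They were Ccl25, Cxcl16, Cx3cl1 and Cxcl10. All 6 Paneth cell markers, all 5 goblet cell markers and 5 of 6 enterocyte markers were called in the same direction in that test. Their part in the chemokine differences was not tested.

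The second comparison set untreated collagen cultures in ENRW beside Matrigel cultures in ENR. Collagen cultures held less Ccl25, Ccl28, Ccl6 and Ccl9 and more Cxcl16, Cxcl1 and Cxcl5. By edgeR's test 11 of 15 genes were called (6 higher and 5 lower) against a background of 31.2% (15.8% higher, 15.4% lower), and the median log2 fold change was 0.33 beside 0.04 over all genes tested. This comparison shares MG_Control and COL_Control with the 5-FU comparisons. The values per library are those given above.

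Among the epithelial CC ligands, Ccl25 fell from a mean of 288 ± 21.9 (SD, n = 3) to 41.8 ± 15.9 CPM, a log2 fold change of -2.79 ± 0.26 (edgeR adjusted p = 3.3e-06). Ccl28 fell from 61.0 ± 13.9 to 19.3 ± 7.69 CPM (-1.68 ± 0.44, edgeR adjusted p = 0.0112). Ccl20 had almost the same mean in both, 13.2 ± 2.36 and 13.3 ± 6.30 CPM, with a difference of -0.01 ± 0.33 and overlapping libraries. Ccl6 fell most among genes with counts throughout, by 3.96 ± 0.28 on the log2 scale (edgeR adjusted p = 4.24e-07), and Ccl9 fell by 2.45 ± 0.17 (edgeR adjusted p = 2.98e-07). The summed CPM of enterocyte markers was lower in every COL_Control library (125 to 579) than in every MG_Control library (2190 to 2491), and that of Paneth cell markers likewise (2814 to 3948 against 7520 to 8843). Their part in the lower ligands was not tested. Cxcl13, the B cell attractant that acts through CXCR5, had 79 counts in MG_Control and 2 in COL_Control. The ratio was 39.6 with a 95% counting interval of 10.6 to 333, and the gene was called lower (edgeR adjusted p = 0.00246).

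Cxcl16 was higher in collagen by 2.27 ± 0.24 (edgeR adjusted p = 1.19e-05), from a mean of 28.0 ± 4.12 to 136 ± 47.4 CPM. Cx3cl1, its membrane-anchored counterpart, was not called, with 33.2 ± 5.82 and 35.7 ± 1.09 CPM and a change of 0.09 ± 0.13. Cxcl1 was higher by 4.53 ± 0.77 (edgeR adjusted p = 0.00058), or by 3.77 without COL_Control replicate 1, and no MG_Control library reached any COL_Control library. Cxcl5 had no count in MG_Control and 114 in COL_Control, at least 37.9-fold more (edgeR adjusted p = 0.000661), or at least 20.6-fold without COL_Control replicate 1. Cxcl2 was higher by 3.77 ± 1.16 (edgeR adjusted p = 0.0248), a call that ended without MG_Control replicate 2 or 3 or COL_Control replicate 1 (edgeR adjusted p 0.0705 to 0.0898). Cxcl10 (1.03 ± 0.36, edgeR adjusted p = 0.0432) and Ccl2 (16 counts against none, at least 5.31-fold more, edgeR adjusted p = 0.0463) were called at the margin. Cxcl10 lost its call without any MG_Control library or COL_Control replicate 1 (edgeR adjusted p 0.0511 to 0.271), and Ccl2 without any MG_Control library or COL_Control replicate 1 or 2 (edgeR adjusted p 0.0878 to 0.113). Of the NF-kB and inflammatory list, 11 of 22 tested genes were called higher and 1 lower, among them Icam1 (2.38, edgeR adjusted p = 3.2e-05) and Tnfaip3, a feedback inhibitor of NF-kB (1.57, edgeR adjusted p = 0.00011). Of the interferon list, 7 of 18 were called higher and 2 lower. The called shares of the 2 lists were 54.5% and 50%, beside 31.2% of all genes tested (15.8% higher, 15.4% lower).

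A further comparison set collagen cultures in cWRNE medium beside collagen cultures in ENRW medium. Ccl6, Cxcl16, Cx3cl1 and Ccl2 were higher with cWRNE and Ccl20 was lower. These were 5 of the 24 genes tested (4 higher and 1 lower), beside a background of 18% (13.1% higher, 4.85% lower), with a median log2 fold change of 0.77 beside 0.00 over all genes tested. Of the 24, 4 had no count in either group, and 7 passed the filter only through VIL, which was in the same fit, so nothing is read from that share. In a fit of these 2 groups alone, 6 of 15 genes were called (4 higher and 2 lower), beside 26.8% of all genes tested. The call count fell to 3 without COL_Control replicate 2 or without COL_cWRNE replicate 2. The labels do not say that both groups were grown side by side.

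Ccl6 stood at 16.0, 12.7 and 8.83 CPM in COL_cWRNE against 2.29, 2.2 and 3.52 CPM in COL_Control, without overlap, and was higher by 2.23 ± 0.30 (edgeR adjusted p = 0.000124). Ccl9, its neighbour in receptor use, was not called and stood at 9.95, 7.25 and 7.05 CPM (-0.52 ± 0.19, edgeR adjusted p = 0.0685). The 2 CCR1 ligands therefore took different calls here. Cxcl16 reached 318, 377 and 250 CPM, above all 3 COL_Control libraries, with a change of 1.22 ± 0.23 (edgeR adjusted p = 0.00189). Cx3cl1 stood at 57.4, 73.6 and 53.8 CPM, likewise above COL_Control, with a change of 0.79 ± 0.14 (edgeR adjusted p = 0.00128). Both membrane-anchored ligands were thus higher with cWRNE without overlap.

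Ccl2 stood at 0.978, 1.94 and 1.05 CPM in COL_cWRNE against 0.287, 0.237 and 0 CPM in COL_Control and was higher by 2.86 ± 0.77 (edgeR adjusted p = 0.0226). The call ended without COL_Control replicate 2 or 3 or COL_cWRNE replicate 2 (edgeR adjusted p 0.0602 to 0.0915). Ccl20 was lower, at 8.14, 3.29 and 5.19 CPM against 20.0, 12.4 and 7.50 CPM, with overlap (-1.27 ± 0.42, edgeR adjusted p = 0.0448). The Ccl20 call ended in 4 of the 6 fits that left out a library, those without COL_Control replicate 1 or 2 or COL_cWRNE replicate 2 or 3 (edgeR adjusted p 0.0857 to 0.219). Cxcl10, at 8.07, 4.36 and 7.28 CPM, was not called (1.20 ± 0.68, edgeR adjusted p = 0.245), although 13 of 20 interferon genes were called, all of them higher. Irf9, a subunit of the interferon-activated transcription factor complex, was among them (1.93, edgeR adjusted p = 3.1e-05). Of the NF-kB list 6 of 23 were higher and 2 lower. The called shares were 65% of the interferon list and 34.8% of the NF-kB list, beside 18% of all genes tested (13.1% higher, 4.85% lower). Immune markers summed to 53.4 to 71.4 CPM in COL_cWRNE and 8.23 to 15.4 CPM in COL_Control, mostly Cd68, while Ptprc, which marks all leukocytes, had no count in either group.

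**Figure D4:**
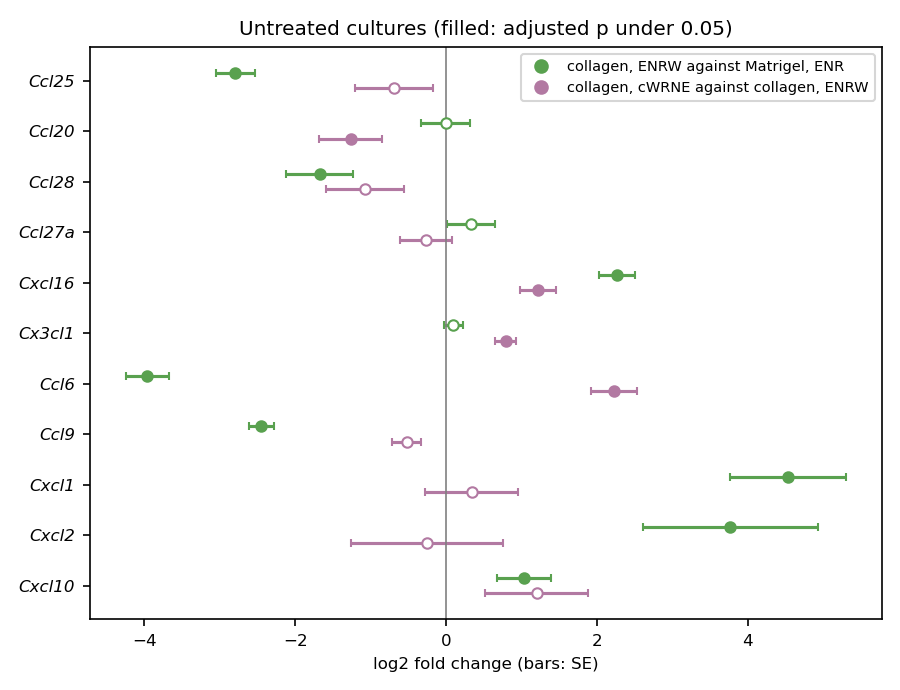
Log2 fold change (x axis; bars are SE) of 11 chemokine ligand genes between untreated cultures, collagen with ENRW against Matrigel with ENR in green and collagen with cWRNE against collagen with ENRW in purple, with filled points at an edgeR adjusted p under 0.05. Ccl6 lay at -3.96 in the first comparison and at 2.23 in the second, and Cxcl16 lay right of zero in both.

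The last comparison set villus-derived beside crypt-derived cultures in the same matrix and medium. VIL held more Ccl6, Ccl9 and the monocyte ligand Ccl2 than COL_cWRNE. Ccl3, Ccl4, Ccl7, Ccl12 and Cxcl14 had few or no counts in COL_cWRNE and more in VIL. By edgeR's test 8 of 22 chemokine genes were called, all of them higher, against a background of 7.64% (5.68% higher and 1.96% lower), and the median log2 fold change was 2.05 beside -0.03 over all genes tested. However, 7 of the 22 (Ccl3, Ccl4, Ccl7, Ccl12, Cxcl2, Cxcl12 and Cxcl14) passed the low-count filter only through VIL, where they are high. These held 5 of the 8 calls, so nothing is read from the count, the direction or the median. The same holds for the adjusted p-values of these 7 genes, whose levels are given below. The count was 15 without VIL replicate 1 and 5 without COL_cWRNE replicate 3. A fit with VIL replicate 1, which has the lowest immune and mesenchymal sums, as the only villus library takes its spread from the other groups. The villus libraries differed more among themselves than those of any other group, so only effect sizes are given from that fit. That fit was added after the data were seen.

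Ccl6 stood at 400, 497 and 774 CPM in VIL against 16.0, 12.7 and 8.83 CPM in COL_cWRNE, a log2 fold change of 5.48 ± 0.33 (edgeR adjusted p = 0.000166). Ccl9 stood at 39.3, 27.0 and 38.1 CPM against 9.95, 7.25 and 7.05 CPM (2.11 ± 0.20, edgeR adjusted p = 0.000801). Every villus library lay above every crypt library for both genes, VIL replicate 1 included.

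The monocyte ligands of CCR2 were low or without counts in all crypt-derived groups. Ccl2 stood at 14.9, 51.5 and 26.4 CPM in VIL, higher than in COL_cWRNE by 4.55 ± 0.55 (edgeR adjusted p = 0.00516), or by 3.96 without VIL replicate 2. Ccl7 stood at 5.40, 38.9 and 13.8 CPM against a total of 4 counts in COL_cWRNE (8.64 ± 1.10, edgeR adjusted p = 0.00596). The Ccl7 value was 7.63 without VIL replicate 2 and rested on 1 count in COL_cWRNE without its replicate 3 (ratio 1276, 95% counting interval 228.7 to 50433). Replicate 1 was the lowest and replicate 2 the highest of the villus libraries for these genes. Ccl12 stood at 1.86, 12.8 and 8.11 CPM and had no count in any crypt library, at least 240-fold more than in COL_cWRNE (edgeR adjusted p = 0.0136), or at least 141-fold without VIL replicate 2. Among the fits that left out a library, it lost its call without COL_cWRNE replicate 3 (edgeR adjusted p = 0.0501).

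Ccl3 and Ccl4, macrophage inflammatory proteins, stood at 3.22, 14.5 and 19.7 CPM and at 2.60, 12.1 and 12.2 CPM. Ccl3 had no count in any crypt library and was at least 370-fold higher in VIL than in COL_cWRNE (edgeR adjusted p = 0.0105). Ccl4 had 5 counts there (7.26 ± 1.19, edgeR adjusted p = 0.0134), and its call ended without COL_cWRNE replicate 1 or 3 (edgeR adjusted p 0.0594 to 0.0619). With VIL replicate 1 as the only villus library, its log2 fold change was 5.51. All 5 counts were in COL_cWRNE replicate 2, and without it Ccl4 was at least 176-fold higher in VIL. Ccl8 and Ccl24, eosinophil and monocyte attractants, were detected in the villus libraries alone, at 0.117 to 2.49 CPM and 0.194 to 2.35 CPM, and did not pass the low-count filter. Ccl5, a T cell attractant, stood at 0.272, 0 and 0.272 CPM in VIL, below the 1.26, 0.878 and 2.53 CPM of COL_cWRNE, and was not called (-3.11 ± 0.97, edgeR adjusted p = 0.0876). It was called lower with DESeq2 (adjusted p = 0.0255) and with limma-trend on log2 of TPM plus 1 (adjusted p = 0.0117). Ccl5 passed the low-count filter only through COL_cWRNE, where it is higher.

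Of the stromal CXC ligands, Cxcl14 stood at 2.49, 18.2 and 36.0 CPM against no count in COL_cWRNE and was at least 543-fold higher (edgeR adjusted p = 0.0191), or at least 339-fold without VIL replicate 3. The call ended without any 1 of the COL_cWRNE libraries or without VIL replicate 2 (edgeR adjusted p 0.0526 to 0.0637). Cxcl12, the CXCR4 ligand that retains leukocytes and stem cells in tissue, stood at 0.466, 5.87 and 32.4 CPM against no count, at least 344-fold more, and missed the threshold (edgeR adjusted p = 0.0541). It was called with DESeq2 (adjusted p = 0.0123), and by edgeR with no filter (adjusted p = 0.000738), in the fit of 18 libraries (adjusted p = 0.00686), without VIL replicate 1 (adjusted p = 0.00544) and without VIL replicate 3 (adjusted p = 0.0379), where the bound was 105-fold. The 3 villus libraries spread widely for both genes, in the same order. Cxcl17, a mucosal chemokine, stood at 0.233, 4.32 and 0 CPM and rested on VIL replicate 2.

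The neutrophil attractants were uneven among the villus libraries. Cxcl5 stood at 2.37, 69.0 and 5.16 CPM and Cxcl2 at 0.622, 8.52 and 9.06 CPM, and neither was called against COL_cWRNE (edgeR adjusted p = 0.138 for Cxcl5 and 0.133 for Cxcl2). Replicate 1 lay within the range of the COL_cWRNE libraries for both, and without it both were called (edgeR adjusted p = 0.0282 for Cxcl5 and 0.0171 for Cxcl2). Cxcl3 stood at 0.350, 2.50 and 6.61 CPM and did not pass the filter. Cxcl1 was not called (-0.36 ± 0.53).

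The mucosal epithelial ligands were highest in replicate 1 and lowest in replicate 3. Ccl25 stood at 203, 83.1 and 18.7 CPM and Ccl28 at 25.0, 14.7 and 6.39 CPM in VIL replicates 1, 2 and 3. Neither was called against COL_cWRNE over all 3 libraries (Ccl25 1.99 ± 0.64, edgeR adjusted p = 0.0955). With replicate 1, the highest, as the only villus library, the log2 fold changes were 3.00 for Ccl25 and 1.48 for Ccl28. Ccl25 was also called without VIL replicate 3 (2.48, edgeR adjusted p = 0.00236). Cxcl16 (251, 266 and 228 CPM) and Cx3cl1 (83.5, 111 and 100 CPM) varied little among the 3. Neither passed, with differences of -0.34 ± 0.17 for Cxcl16 and 0.68 ± 0.18 for Cx3cl1 (edgeR adjusted p = 0.294 and 0.0501), and every villus library lay above every COL_cWRNE library for Cx3cl1. Cx3cl1 was called with DESeq2 (adjusted p = 0.00498), and by edgeR with RLE size factors (adjusted p = 0.0393), with no filter (0.0407), with the 10 CPM filter (0.0434), in the fit of 18 libraries (0.00524) and without VIL replicate 1 (0.021). Cxcl10 stood at 0.505, 0.0309 and 2.13 CPM, below all COL_cWRNE libraries, and did not pass (-2.91 ± 0.94, edgeR adjusted p = 0.0987). It was called lower with DESeq2 (adjusted p = 0.0172) and with limma-trend on log2 of TPM plus 1 (adjusted p = 0.0127). By edgeR it was called lower with no filter (adjusted p = 0.0333) and in the fit of 18 libraries (adjusted p = 0.0149). Without VIL replicate 3 it was likewise called lower (edgeR adjusted p = 0.0124).

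Markers of other cell types also differed among the villus libraries and between VIL and COL_cWRNE. In VIL replicates 1, 2 and 3 the immune markers summed to 181, 580 and 923 CPM, the mesenchymal markers to 54, 761 and 725 CPM and the endothelial markers to 8.62, 20.2 and 89.9 CPM. Enterocyte markers summed to 2160, 649 and 242 CPM, and Paneth cell markers to 9786, 3833 and 1154 CPM. No immune or mesenchymal marker had 0 counts over VIL, whereas 6 of 14 immune and 7 of 12 mesenchymal markers had 0 counts over COL_cWRNE, Ptprc, Adgre1, Pdgfra and Dcn among them. By edgeR's test 10 of 11 immune and 10 of 10 mesenchymal markers tested were higher in VIL, beside 5.68% of all genes tested. In the fit of 12 libraries without VIL, only 4 immune and 3 mesenchymal markers passed the low-count filter. Nothing is therefore read from these shares or their direction. The part of immune and mesenchymal RNA in the chemokine values was not tested.

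**Figure D5:**
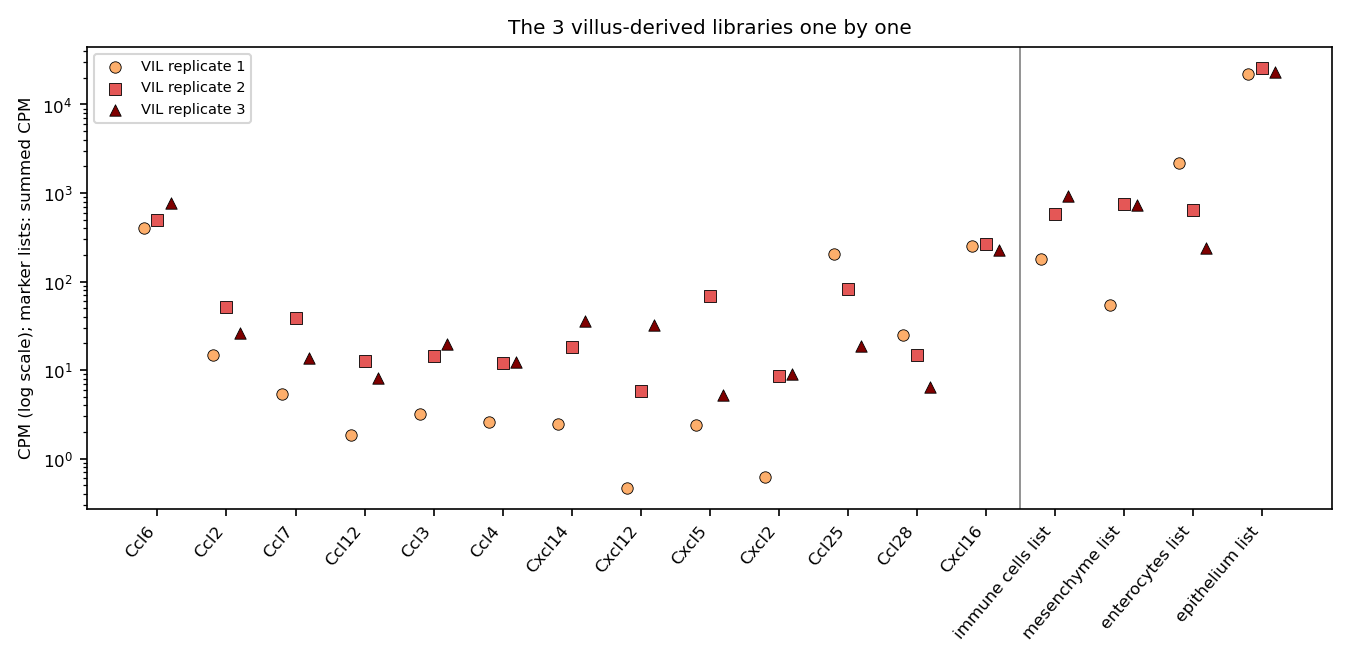
CPM on a logarithmic axis of 13 chemokine ligand genes (left of the line) and summed CPM of 4 marker lists (right of the line) in the 3 villus-derived libraries, with 1 symbol a replicate. Cxcl12, at 0.466 to 32.4 CPM, and Cxcl5, at 2.37 to 69.0 CPM, spread most, Cxcl16 lay between 228 and 266 CPM, and Ccl25 stood at 203, 83.1 and 18.7 CPM in the libraries in which enterocyte markers summed to 2160, 649 and 242 CPM.

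Receptors for these ligands were scarce. Of 23 receptor genes, 3 passed the filter in the 5-FU and matrix fit, and Ccrl2, an atypical receptor that binds chemerin, rose with 5-FU in Matrigel (1.82, edgeR adjusted p = 0.0074). Ccr6 and Cxcr3, the receptors for Ccl20 and Cxcl10, had no count in any library. In VIL 5 of 7 tested receptors were called, all of them higher than in COL_cWRNE, beside a background of 7.64% (5.68% higher). Because only 3 receptors passed the filter in the fit without VIL, nothing is read from that share or its direction. Ccr1, the receptor for Ccl3, Ccl6 and Ccl9, averaged 35.8 CPM in VIL and had no count in any crypt library. Ackr3, a scavenging receptor for Cxcl12, averaged 16.7 CPM, and Cx3cr1, the receptor for Cx3cl1, 5.66 CPM.

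VIL and COL_cWRNE were also each set against MG_Control, which both comparisons share, so their values are given side by side. In VIL 16 of 22 genes were called (14 higher and 2 lower; background 46.6%, 27% higher and 19.7% lower), with a median of 4.09 beside 0.02 over all genes tested. The 7 genes that passed only through VIL were all among the 14, so nothing is read from these values. In COL_cWRNE 12 of 22 were called (7 higher and 5 lower; background 33.3%, 20.1% higher and 13.1% lower), with a median of 0.43 beside -0.01. The same 7 were in this fit. Ccl5 and Cxcl11, both called higher, passed only through COL_cWRNE, so nothing is read from their calls. Ccl28 was lower, with log2 fold changes of -2.03 ± 0.45 in VIL (edgeR adjusted p = 0.00534) and -2.79 ± 0.46 in COL_cWRNE (edgeR adjusted p = 0.00163). Cxcl16 was higher by 3.11 ± 0.19 (edgeR adjusted p = 1.99e-05) and 3.44 ± 0.19 (edgeR adjusted p = 1.1e-05). Ccl6 was higher in VIL (3.71 ± 0.30, edgeR adjusted p = 4.16e-05) and lower in COL_cWRNE (-1.77 ± 0.28, edgeR adjusted p = 0.00141). Ccl9 was lower in both, with -0.90 ± 0.19 (edgeR adjusted p = 0.00436) and -3.02 ± 0.20 (edgeR adjusted p = 1.81e-05). Ccl25 was lower in COL_cWRNE (-3.53 ± 0.67, edgeR adjusted p = 0.00359) and was not called in VIL (-1.54 ± 0.62, edgeR adjusted p = 0.0669). The Ccl25 difference in VIL was called without replicate 1 (-2.49, edgeR adjusted p = 0.00297) or without replicate 3 (-1.04, edgeR adjusted p = 0.0317).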

How the data were processed

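RNA of 18 organoid libraries in 6 groups of 3 was sequenced after SMART-Seq mRNA and Nextera XT library preparation, per the labels' protocols. The authors deposited expected counts (estimated counts, not scaled between libraries) and TPM per gene, per the file headers. The tools named in the submitters' processing notes are bcl2fastq 2.20 and DRAGEN, and the build is GRCm39 (mm39). The annotation, the counting tool and the use of strand are not given in the sources used here. Symbols were matched to 52081 of 55414 gene identifiers.

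Expected counts were rounded and fitted with edgeR 4.0.16 (R 4.3.3), with quasi-likelihood F-tests, TMM scaling and filterByExpr (minimum count 10, minimum total 15). P-values were adjusted by Benjamini-Hochberg over all genes tested, with calls at an adjusted p under 0.05. One fit held the 12 libraries of the 5-FU and matrix comparisons and another the 9 of the villus comparisons. The comparison of cWRNE with ENRW used all 18. SE was the log2 fold change over the root of F, and levels are TMM-scaled CPM. A group with 0 counts allows up to 3, and folds against it are given as at least that size. Floors and counting intervals cover counting error only.

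The members, the gene lists and the tests were chosen with earlier results of these data known. Every member with a mean of at least 1 CPM in a group was to be named with its values, and the others without a test. Cxcl9, Cxcl11 and Cxcl13 fall below that level, and their values were chosen for print after they were seen. Of each pathway list, up to 4 genes with the smallest adjusted p could be named. Some genes that this rule names are left out of the text.

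Same-numbered libraries deviated together from their group means over 9937 genes, with correlations of 0.543, 0.135 and 0.438 for 5-FU in Matrigel, 0.445, 0.153 and 0.267 for 5-FU in collagen, and 0.207, 0.277 and 0.217 for cWRNE against ENRW. Those numbers were taken to pair the libraries. In no other comparison did all 3 exceed 0.1. No libraries of a group were duplicates of each other (lowest chi-square per degree of freedom 14.3). The fits were tested on simulated counts. Alternatives were DESeq2 1.42.0, RLE size factors, library totals, other filters, limma 3.58.1 (limma-trend) on log2 of TPM plus 1, one fit of 18 libraries, a fit of 2 groups alone, a block for the replicate number, and dropping 1 library at a time. VIL replicate 1 as the only villus library was added after the data were seen. Overlaps between exons came from the GENCODE annotation of GRCm38, and promoters from RefSeq (GRCm38.p6).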

Additional observations from a re-analysis of the deposited data

Results flagged for a closer look

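The response to 5-FU differed between Matrigel cultures in ENR and collagen cultures in ENRW, by the interaction test of edgeR, for 4 chemokine ligand genes. Matrix and medium cannot be told apart in that test. The log2 fold change in collagen minus that in Matrigel was -1.67 for Ccl25 (edgeR adjusted p = 0.00886), -1.41 for Cxcl16 (edgeR adjusted p = 0.0169), -0.71 for Cx3cl1 (edgeR adjusted p = 0.026) and -1.79 for Cxcl10 (edgeR adjusted p = 0.0429). Ccl25 was lower with 5-FU in collagen and higher in Matrigel, a call lost whichever library of the Matrigel comparison was left out. The rises of the other 3 were smaller in collagen or did not pass there. With all 18 libraries in one fit, Cxcl16 alone of the 4 kept its call.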

How the results depend on the processing

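Of 2120 recomputed gene values, 1955 kept their side of the threshold, 104 lost the call, 61 gained one and none reversed. Direction was compared only for values called in the main fit or in the alternative. The number of genes called among the members moved by more than 1.5 times as follows. With at least 10 CPM in at least 3 libraries, which leaves fewer genes to test, it was 6 for 5-FU in Matrigel, 5 for COL_Control against MG_Control, 4 for VIL against COL_cWRNE and 6 for VIL against MG_Control. For the interaction it was 2 with limma-trend on TPM, 1 in the fit of 18 libraries and 2 to 4 without 1 library. For VIL against COL_cWRNE it was 14 with DESeq2, 17 with no filter beyond 1 count, 14 in the fit of 18 libraries and 5 to 15 without 1 library. Leaving out 1 library gave 3 to 6 for cWRNE against ENRW, 7 to 9 for 5-FU in Matrigel, 5 to 7 for 5-FU in collagen, 8 to 11 for COL_Control against MG_Control, 16 to 21 for VIL against MG_Control and 10 or 11 for COL_cWRNE against MG_Control. Where no value is given, the cause was not tested.

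With the replicate block, the calls of the 3 paired comparisons did not change (10, 6 and 5 genes). In comparisons whose numbers did not pair the libraries, the block gave 3 for the interaction, 10 for COL_Control against MG_Control, 9 for VIL against COL_cWRNE, 16 for VIL against MG_Control and 12 for COL_cWRNE against MG_Control. There Cxcl10 lost its call in the interaction (edgeR adjusted p = 0.0543) and for COL_Control against MG_Control (0.0574), and Cxcl11 for VIL against MG_Control (0.0683). Cxcl12 gained one for VIL against COL_cWRNE (edgeR adjusted p = 0.0185) and Ccl25 for VIL against MG_Control (0.0347). As a hint from the data and not the labels, replicate 2 of all 6 groups had 3323 to 5577 Y-linked counts and at most 15 Xist counts, and replicates 1 and 3 had at least 4833 Xist counts and, COL_Control replicate 3 apart, at most 1 Y-linked count. The number thus follows sex-linked RNA in every group. Over all genes, the interaction called 1360 (2219 with DESeq2 and 521 in the fit of 18 libraries), and VIL against COL_cWRNE called 1276 (2256 with DESeq2, 2480 in the fit of 18, 847 at 10 CPM, and 351 to 2050 without 1 library). For cWRNE against ENRW, 3184 genes were called, and 1907 to 2669 without 1 library. Library totals in place of TMM shifted the median log2 fold change of all genes from 0.06 to -0.09 for 5-FU in Matrigel, from -0.03 to -0.13 for 5-FU in collagen and from 0.00 to -0.16 for cWRNE against ENRW. The member counts under library totals were 9, 6 and 6 there. TPM shifted it to -0.22 for 5-FU in Matrigel and to 0.23 for COL_Control against MG_Control. Genes with few counts, such as Cxcl2, Cxcl5 and Cxcl11, are limited by depth.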
